A study of Mus musculus with 6 samples.

Results

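The 10 imprinted growth-control genes Cdkn1c, H19, Igf2, Dlk1, Meg3, Rian, Mirg, Ndn, Grb10 and Peg3 were examined in LSKs, the lineage-negative, Sca-1-positive and c-Kit-positive bone marrow cells that contain hematopoietic stem and progenitor cells. The members were chosen by name, and all 10 had a row among the 55487 genes of the deposited table. RNA sequencing covered 6 samples of irradiated cells, of which 3 were Tespa1+/+ (wild type) and 3 were Tespa1-/-. Tespa1-/- mice carried the B6.129S-Tespa1tm1Smoc allele and had been backcrossed to C57BL/6 for more than 6 generations. Per the methods of the study, mice were male, 8 to 10 weeks old, received 5.0 Gy of total body irradiation, and LSK RNA was purified at day 13 after exposure. Irradiation was thus shared by both genotypes, and no library of unirradiated LSKs was analysed here. Whether a sample was 1 mouse or a pool was not given, so that the p-values measure only the spread between these samples.

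Imprinted genes are transcribed from the copy inherited from either the mother or the father, as set by DNA methylation marks laid down in the germ line. Many of them control growth before birth: paternally expressed genes such as Igf2, Dlk1 and Peg3 tend to promote it, whereas maternally expressed genes such as Cdkn1c, H19 and Grb10 tend to restrain it. In blood, Cdkn1c (the cyclin-dependent kinase inhibitor p57) and the noncoding RNAs of the H19 and Dlk1-Meg3 regions are known for their part in keeping long-term stem cells quiescent.

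Total counts lay between 12856630 and 30576981 per library. Levels are given as CPM, counts made comparable between libraries of unequal depth by TMM scaling, and fold changes are Tespa1-/- over Tespa1+/+ from edgeR's quasi-likelihood test. A gene was called higher or lower at a Benjamini-Hochberg adjusted p under 0.05 and a fold over 1.5, over the 15332 genes that passed a filter on low counts. A count of 0 allows up to 3 counts, which corresponds to 0.0949 to 0.242 CPM depending on the library; this limit covers counting error only. Tespa1 itself, a gene named for its role in thymocyte selection, was at 34.4, 32.7 and 35.9 CPM in the Tespa1+/+ libraries and at 15.3, 14.2 and 14.2 CPM in the Tespa1-/- libraries. Its transcripts were therefore lower but still counted in the null genotype (log2 fold change -1.23, SE 0.07, edgeR adjusted p 7.0e-06).

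Most members were at or near the detection limit, and Grb10 alone differed past the threshold. Of the 10 members, 3 (Dlk1, Meg3 and Peg3) had 0 counts in every library, 5 had too few counts to be tested, and 2 (Grb10 and Cdkn1c) were tested. Grb10 was called lower in Tespa1-/- LSKs, Cdkn1c was not called, and no member was called higher. Over all genes tested, 19.2% were called lower and 14.0% were called higher. Of the 3176 counts assigned to the 10 members in the 6 libraries together, 2953 belonged to Grb10, a share of 93%. In the table as a whole, 28.4% of protein-coding genes and 80.4% of lincRNA genes had 0 counts in all libraries.

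**Figure D1:**
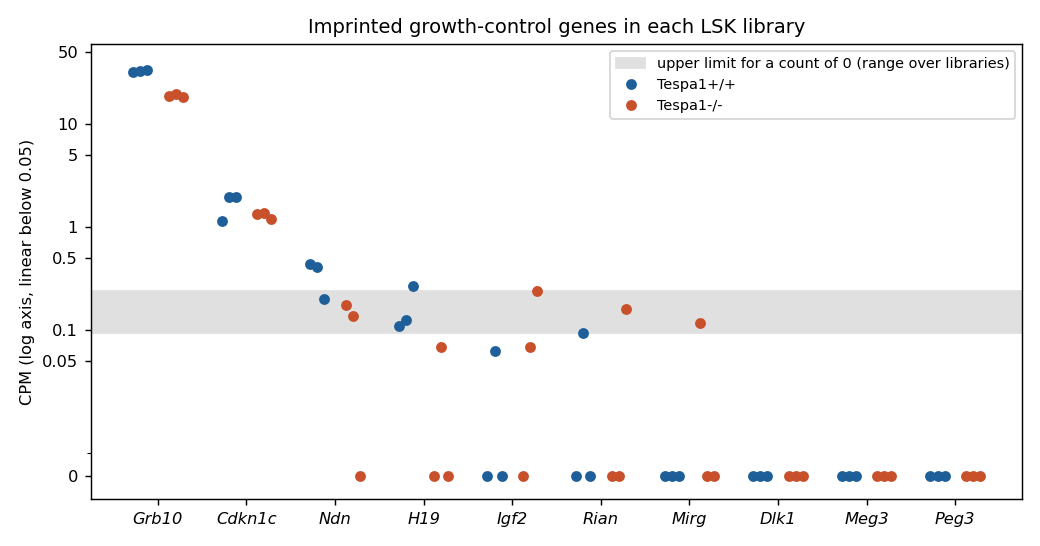
CPM of the 10 members in each library on a log axis that is linear below 0.05; each point is 1 library (blue, Tespa1+/+; orange, Tespa1-/-; n = 3 each), and the grey band spans the limits that a count of 0 allows, 0.0949 to 0.242 CPM. Grb10 and Cdkn1c lie above the band in all libraries, Dlk1, Meg3 and Peg3 lie at 0 in all.

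The sequences before the start sites of Grb10 and Meg3 are shown because these members are opposite cases, with Grb10 the most abundant of the 10 and Meg3 without a count. Reference sequences were taken from RefSeq (GRCm38.p6), whose table held 13 start windows for 8 of the members and none for Cdkn1c and H19. The 250 bases upstream of each start are printed 5′ to 3′ on the strand of the gene, with CG dinucleotides, the sites of DNA methylation, in capitals.
Grb10, first start, chr11:12037421-12037670, minus strand: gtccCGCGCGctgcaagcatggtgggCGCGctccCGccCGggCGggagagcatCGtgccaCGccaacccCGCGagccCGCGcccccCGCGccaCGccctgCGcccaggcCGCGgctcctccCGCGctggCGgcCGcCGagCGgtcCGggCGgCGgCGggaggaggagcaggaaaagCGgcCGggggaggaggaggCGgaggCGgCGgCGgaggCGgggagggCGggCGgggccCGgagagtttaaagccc
Grb10, second start, chr11:12027972-12028221, minus strand: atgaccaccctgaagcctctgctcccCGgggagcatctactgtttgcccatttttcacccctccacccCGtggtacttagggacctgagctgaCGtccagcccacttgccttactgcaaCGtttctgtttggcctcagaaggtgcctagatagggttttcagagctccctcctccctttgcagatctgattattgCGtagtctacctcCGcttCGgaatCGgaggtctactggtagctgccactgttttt
Meg3, first start, chr12:109540746-109540995, plus strand: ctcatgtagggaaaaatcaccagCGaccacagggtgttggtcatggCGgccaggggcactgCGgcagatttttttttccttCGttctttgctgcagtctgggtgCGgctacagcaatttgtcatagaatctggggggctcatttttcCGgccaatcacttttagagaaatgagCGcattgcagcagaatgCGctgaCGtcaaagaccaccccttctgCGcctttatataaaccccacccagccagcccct
The first Grb10 sequence held 40 CG dinucleotides, the second 8 and that of Meg3 10; a second Meg3 start, not printed, held 0. In the full window of 250 bases before and 50 bases after the start, the first Grb10 start had 45 CG dinucleotides and a GC content of 80%, and 1.93% of the 32851 windows in the table had as many. The median window held 7. The hexamer TGCCGC, the letters bound by the imprint regulator Zfp57 when methylated, was searched on both strands; it was in 3 of the 13 member windows (the first starts of Grb10 and Meg3, and a start of Igf2) and in 11.6% of all windows. The counts are per gene, so that transcripts from the different Grb10 starts were not separated, and no methylation was measured.

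Grb10 encodes an adaptor protein that binds the insulin and IGF1 receptors and dampens their signal. The gene lies at chr11:11930508-12038683 on the minus strand (GRCm38, ENSMUSG00000020176, protein coding) and shares no exon bases with another gene in GENCODE M21. Its counts were 586, 1041 and 494 in the Tespa1+/+ libraries and 320, 286 and 226 in the Tespa1-/- libraries. Scaled to depth, these were 32.2, 32.9 and 33.3 CPM in Tespa1+/+ and 18.8, 19.7 and 18.2 CPM in Tespa1-/- LSKs. The groups were far apart, and replicates differed by little within each. Grb10 fell from 32.8 ± 0.538 to 18.9 ± 0.743 CPM (SD, n = 3 each), a log2 fold change of -0.80 (SE 0.06, 95% interval -0.93 to -0.66, edgeR adjusted p 2.5e-05) or 1.74-fold. In bulk RNA, fewer cells that express a gene and less RNA of it per cell cannot be told apart.

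The size of this difference changed under a correction for a trend with gene length. For the 10021 tested genes that had a mean log2 CPM above 3, fold change and exon length were related with a Spearman coefficient of -0.62, a description across genes that share these libraries. Grb10, with 9089 exon bases, is among the longer genes. When the trend with length was removed, the log2 fold change of Grb10 was -0.38 (SE 0.06, edgeR adjusted p 0.00143). It was then still lower but under the 1.5-fold size, so that 0 of the 2 tested members were called, beside 15.3% called lower and 8.18% called higher of all genes with this correction.

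Cdkn1c encodes p57, a cyclin-dependent kinase inhibitor of the CIP/KIP family that holds cells in G1 or G0. It lies at chr7:143458339-143461050 on the minus strand (ENSMUSG00000037664, protein coding, 2039 exon bases). Counts were low, with 21, 62 and 29 in Tespa1+/+ libraries against 23, 20 and 15 in Tespa1-/- libraries. The levels were 1.15, 1.96 and 1.95 CPM against 1.35, 1.38 and 1.21 CPM. Thus 2 Tespa1+/+ libraries lay above all Tespa1-/- libraries, while Tespa1+/+ replicate 1 was the lowest of the 6. The difference from 1.69 ± 0.463 to 1.31 ± 0.09 CPM (SD, n = 3 each) did not pass the threshold (log2 fold change -0.37, SE 0.25, 95% interval -0.96 to 0.22, edgeR adjusted p 0.23). Because the interval reaches from well below 0 to slightly above it, no change and a sizeable decrease are both within it. Without Tespa1+/+ replicate 1 the log2 fold change was -0.57 (edgeR adjusted p 0.0377), still under the 1.5-fold size, and without any 1 of the other libraries the adjusted p stayed above 0.05. With the length correction it was -0.59 (edgeR adjusted p 0.0794). Of its exon bases, 625 are shared with the antisense gene Gm44732, which was at 0.158 CPM or less in every library; whether counting used the strand was not given.

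**Figure D2:**
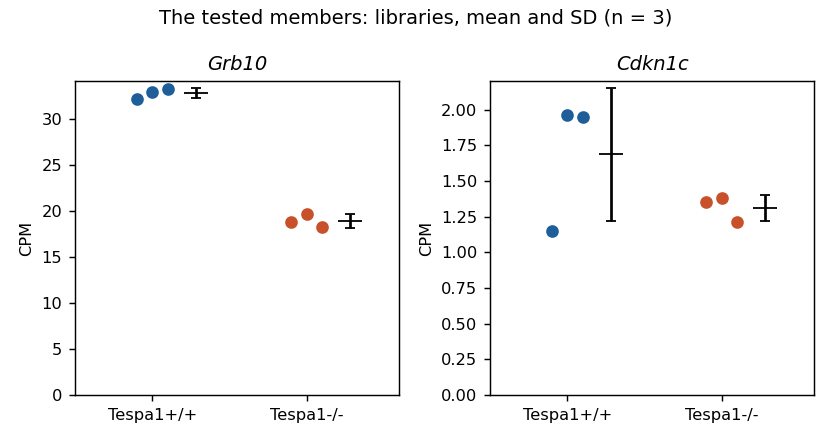
CPM of Grb10 (left) and Cdkn1c (right) in the 3 Tespa1+/+ and 3 Tespa1-/- libraries, with the mean and SD in black; axes start at 0. The Grb10 groups do not overlap, and the lowest Cdkn1c value, 1.15 CPM, belongs to a Tespa1+/+ library.

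Per unit of length, Grb10 was also the most abundant member. Its level was 3.36 ± 0.0517 FPKM (counts scaled by gene length and library total) in Tespa1+/+ and 1.81 ± 0.0727 FPKM in Tespa1-/- LSKs, and that of Cdkn1c was 0.337 ± 0.0922 and 0.244 ± 0.0168 FPKM (SD, n = 3 each). Over all 6 libraries, 9377 of the 15332 tested genes had a higher mean FPKM than Grb10, and 14140 a higher one than Cdkn1c. Outside the imprinted genes, the tested genes whose log2 CPM was most like the mean standardised profile of Grb10 and Cdkn1c over the 6 libraries were Slc9a3r1, Eps8l2 and Srsf3, with Pearson coefficients of 0.996, 0.995 and 0.995. Their log2 fold changes were -0.07, -1.53 and -0.80, since likeness of standardised profiles leaves out the size of a difference. Such likeness was common, with coefficients over 0.9 for 683 of 15303 genes, and it is a description of 6 libraries that fall into 2 genotypes.

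The Igf2-H19 region was nearly silent. Igf2 encodes the fetal growth factor IGF2, and H19 is a maternally expressed noncoding RNA transcribed downstream of it. H19 (chr7:142575529-142578143, minus strand) had 2, 4 and 4 counts in Tespa1+/+ and 0, 1 and 0 counts in Tespa1-/- libraries. Every Tespa1-/- library lay below every Tespa1+/+ library, at 0 to 0.0688 against 0.11 to 0.269 CPM, but no library held more than 4 counts. The ratio of the pooled counts, Tespa1+/+ over Tespa1-/-, was 6.81 with an exact counting interval of 0.968 to 295. Over libraries the exact two-sided permutation p was 0.1, the smallest that 3 against 3 allows.

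Igf2 (chr7:142650766-142666816, minus strand) had 0, 2 and 0 counts in Tespa1+/+ and 0, 1 and 3 counts in Tespa1-/- libraries. The pooled ratio, Tespa1+/+ over Tespa1-/-, was 0.34 with an exact counting interval of 0.0308 to 2.37. A difference in either direction is within this interval, and the exact two-sided permutation p over libraries was 0.4. Of the 5723 exon bases of Igf2, 3596 are shared with Gm49394 on the same strand, which reached at most 0.344 CPM. The neighbouring genes Ins2 (insulin 2) and Th (tyrosine hydroxylase) had 0 counts in every library. Of the 14 genes of the table in this region, 6 had any count, with 47 counts in all, and none was tested.

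The noncoding RNAs of this region also serve as precursors of miRNAs, and the arms of miR-675, cut from H19, are shown with the seed (bases 2 to 8) in capitals, in RNA letters from RefSeq.
mmu-miR-675-5p: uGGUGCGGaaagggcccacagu
mmu-miR-675-3p: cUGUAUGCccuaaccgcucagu
Poly-A RNA-seq does not measure mature miRNAs. The precursor genes inside H19, Igf2, Meg3, Rian and Mirg, 21 in number with 39 mature miRNAs and 38 distinct seeds, held 2 counts in total, both at Mir675. The only seed found more than once was GGUUGCC, shared by miRNAs within Mirg, which also lay in a region almost without counts.
mmu-miR-453: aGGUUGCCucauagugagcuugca
mmu-miR-496a-5p: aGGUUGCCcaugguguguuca

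The Dlk1-Dio3 region on chromosome 12 was nearly silent as well. Dlk1 (chr12:109452823-109463336, plus strand), which encodes a membrane protein of the Notch ligand type, and Meg3 (chr12:109541001-109571726, plus strand), the maternally expressed noncoding RNA beside it, had 0 counts in all 6 libraries. With 108037858 counts in all, this allows a level of up to 0.0278 CPM, without TMM scaling, for each. Rian (chr12:109603808-109661716), a host of small nucleolar RNAs, had 3 counts in Tespa1+/+ replicate 2, 2 counts in Tespa1-/- replicate 3 and 0 in the other libraries. Mirg (chr12:109729764-109749460), a host of miRNAs, had 2 counts in Tespa1-/- replicate 1 and 0 elsewhere. No difference between the genotypes was detectable for Rian or Mirg (exact permutation p 1 for each). Rtl1 had 0 counts, Dio3, the deiodinase that inactivates thyroid hormone, had 2 counts, and of the 116 genes between Dlk1 and Dio3 only 5 had any count. Nearly all of those 2840 counts belonged to Gm3379, which is not an imprinted gene of the lists.

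Ndn and Peg3, both paternally expressed genes of growth restraint or growth support in other tissues, were also low. Ndn, which encodes the growth suppressor necdin (chr7:62346569-62350262, plus strand), had 8, 13 and 3 counts in Tespa1+/+ libraries, against 3, 2 and 0 counts in Tespa1-/- libraries. The levels were 0.44, 0.411 and 0.202 CPM against 0.176, 0.138 and 0 CPM. The groups did not overlap, but Tespa1+/+ replicate 3 and Tespa1-/- replicate 1 held the same 3 counts. The pooled ratio, Tespa1+/+ over Tespa1-/-, was 3.27 with an exact counting interval of 1.22 to 11, and the exact two-sided permutation p over libraries was 0.1, again the smallest possible. When no filter was applied, edgeR gave Ndn a log2 fold change of -1.64 (adjusted p 0.106) and H19 a log2 fold change of -2.48 (adjusted p 0.134). Behind these values are 29 and 11 counts in all 6 libraries.

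Peg3 (chr7:6703892-6730431, minus strand), a zinc finger protein gene, had 0 counts in every library, which allows up to 0.0278 CPM as for Dlk1. In its region 1 of 14 genes had any count, with 4 counts for Usp29. Across the members, the libraries of the genotypes did not overlap, with Tespa1-/- below, for 3 (Grb10, Ndn and H19) of the 7 that had any count, while 23.5% of all 27297 genes with any count showed this order.

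Cdkn1c lies in the Kcnq1 region, where other genes were well expressed. Kcnq1ot1, the long paternal noncoding RNA that silences Cdkn1c on the paternal copy, was at 124, 119 and 120 CPM in Tespa1+/+ and at 77.4, 72.9 and 75.8 CPM in Tespa1-/- LSKs. It was called lower (log2 fold change -0.68, SE 0.04, edgeR adjusted p 8.6e-06), but its direction turned with the length correction (0.82, edgeR adjusted p 1.0e-05). Kcnq1ot1 has 93092 exon bases, and only 2 tested genes, itself included, are that long, so that the correction is poorly determined at this length.

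Cd81, a tetraspanin gene of the same region, was at 104 to 112 CPM in Tespa1+/+ and 107 to 111 CPM in Tespa1-/- LSKs, with a log2 fold change of 0.02 (95% interval -0.07 to 0.12, edgeR adjusted p 0.667). Osbpl5, which encodes a lipid transfer protein, fell from 16.8, 16.4 and 16.4 to 11.3, 9.08 and 8.29 CPM (log2 fold change -0.79, edgeR adjusted p 0.00087; with the length correction -0.67). Ascl2, a transcription factor gene, was called higher at 1.35, 1.17 and 0.725 against 0.385, 0.664 and 0.674 CPM (log2 fold change 0.91, edgeR adjusted p 0.0432), a call that was lost under 12 of the other settings. Tssc4, Nap1l4 and Slc22a18 were not called, at log2 fold changes of 0.22, 0.26 and -0.13. Phlda2, which restrains placental growth, had at most 5 counts in any library, and Kcnq1, a potassium channel gene, at most 3.

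In the Ndn-Snrpn region, Ube3a, the ubiquitin ligase gene, was at 63.2, 48.5 and 77.2 CPM in Tespa1+/+ LSKs, against 103, 97.5 and 52.8 CPM in Tespa1-/- LSKs. Tespa1-/- replicate 3 stood apart from its group, and the log2 fold change of 0.43 did not pass (edgeR adjusted p 0.194). Without that library it was 0.68 (edgeR adjusted p 0.0165), and with the length correction 1.24 (edgeR adjusted p 0.00672). Peg12 was at 0.704 to 1.05 CPM in both genotypes together (log2 fold change -0.01). Snrpn, Snurf, Magel2 and Mkrn3 had 16, 1, 0 and 18 counts in all 6 libraries and were not tested. Near Grb10, Ddc and Cobl had at most 7 counts in a library, and the closest tested gene, Fignl1, was not called (1.09-fold, edgeR adjusted p 0.363).

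Beside the members, 52 other imprinted genes were listed, of which 51 had a row and 27 were tested. Of the 27, 14 were called lower and 2 higher, beside 19.2% and 14.0% of all genes tested. Their median log2 fold change was -0.66 beside 0.00 over all genes tested. With the length correction, 11 were called lower and 3 higher, beside 15.3% and 8.18% of all genes, with a median of -0.39 beside 0.02. The paternally expressed list accounted for 9 of 11 tested genes called lower and 0 called higher, and the maternally expressed list for 5 of 16 called lower and 2 higher. Whether these lists differ from each other was not tested. The counts do not separate the parental copies, so that the list names do not show which copy was transcribed in LSKs.

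Among paternally expressed genes, Peg13, a noncoding RNA, had the largest fall of those with a mean count of at least 50. It was at 72.2, 68.2 and 66.9 CPM in Tespa1+/+ and at 21.8, 19.5 and 20.3 CPM in Tespa1-/- LSKs, a 3.36-fold decrease (log2 fold change -1.75, SE 0.06, edgeR adjusted p 1.5e-06), and the length correction left it at -1.65. Trappc9, which surrounds it and was named after its value was seen, was not called (log2 fold change -0.40; with the length correction -0.05). Sfmbt2, a Polycomb group gene, fell from 4.4, 4.4 and 4.31 to 2.29, 1.79 and 1.13 CPM (log2 fold change -1.30, edgeR adjusted p 0.00149). Inpp5f, a phosphoinositide phosphatase gene, fell from 15.9, 16.4 and 14.5 to 6.92, 6.47 and 7.17 CPM (log2 fold change -1.19, edgeR adjusted p 2.9e-05). Mcts2, a retrocopy of Mcts1 within H13 whose reads may be split with the parent gene, had a log2 fold change of -0.99.

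Among maternally expressed genes, Slc22a3, which encodes an organic cation transporter, fell from 72, 80.4 and 71.9 to 28.4, 32.1 and 25.9 CPM (log2 fold change -1.38, SE 0.09, edgeR adjusted p 1.3e-05), and was at -1.30 with the length correction. Of its exon bases, 420 are shared with Plg. Ppp1r9a, a gene of the actin-binding protein neurabin, fell from 13.8, 12.5 and 12.7 to 4.16, 3.78 and 4.75 CPM (log2 fold change -1.62; with the length correction -0.98). Gatm, which encodes the first enzyme of creatine synthesis, rose from 125, 121 and 121 to 195, 185 and 191 CPM (log2 fold change 0.64, SE 0.03, edgeR adjusted p 6.6e-06), and with the length correction was at 0.54, under the 1.5-fold size.

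**Figure D3:**
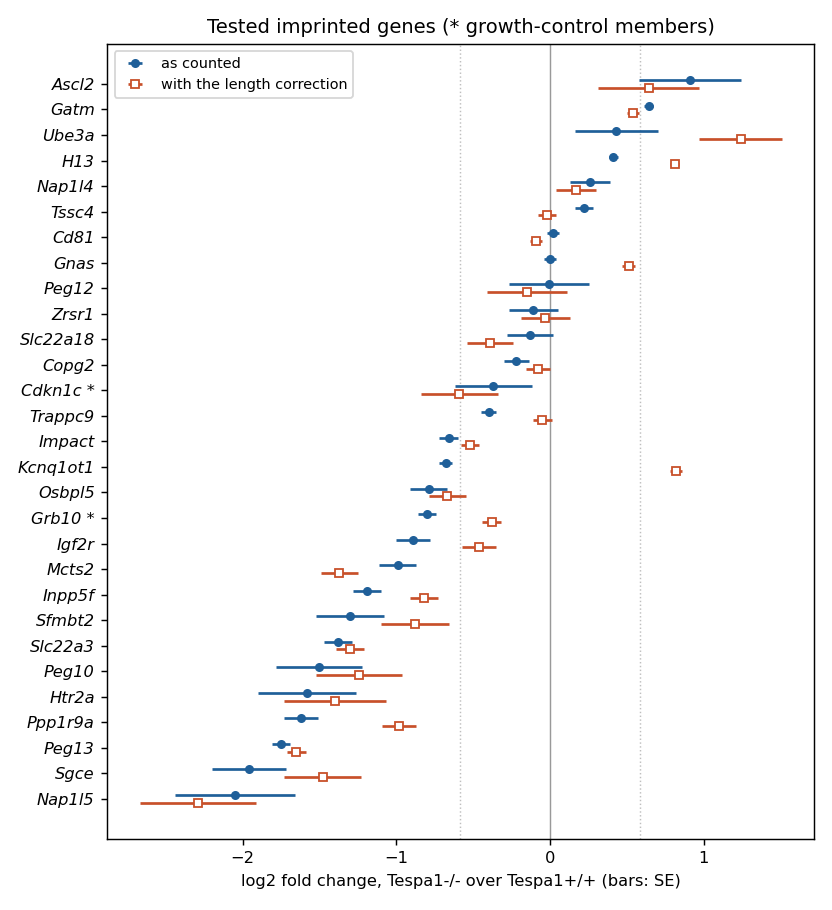
Log2 fold change, Tespa1-/- over Tespa1+/+, of the 29 imprinted genes tested (members marked with an asterisk), as counted (blue points) and with the length correction (open orange squares); bars are SE and dotted lines mark the 1.5-fold size. Peg13 and Slc22a3 keep nearly the same value, Grb10 moves from -0.80 to -0.38, and Kcnq1ot1 changes sign.

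**Figure D4:**
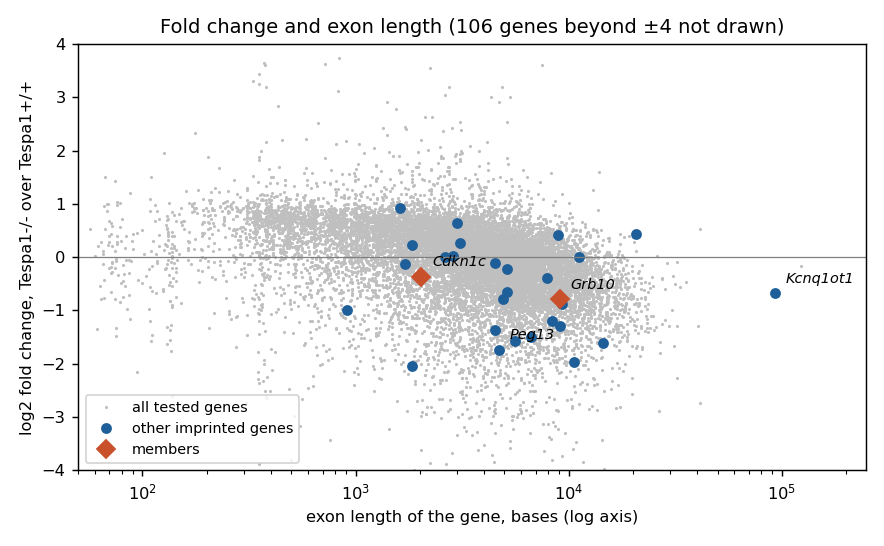
Log2 fold change against exon length (log axis) for all tested genes (grey), the other imprinted genes (blue) and the 2 tested members (orange diamonds). Short genes lie mostly above 0 and long genes below, and Grb10, with 9089 exon bases, lies among genes with values below 0; 106 genes beyond 4 on the log2 scale are not drawn.

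Genes of the IGF and insulin pathway, on whose receptors IGF2 and Grb10 act, were examined next. IGF2 and insulin signal through the receptors Igf1r and Insr and the adaptor Irs2, whereas Igf2r takes up IGF2 for degradation. The 17 listed genes included IGF-binding and RNA-binding protein genes, and Igf2r, which was also in the maternally expressed list. Of the 17, 8 were tested, 5 were called lower and 0 higher, beside 19.2% lower and 14.0% higher of all genes tested. The median log2 fold change was -0.91 beside 0.00. With the length correction 3 were called lower, beside 15.3% of all genes, and the median was -0.50 beside 0.02. Irs2 fell from 26.4, 29.3 and 26.7 to 12.7, 11.2 and 11.1 CPM (log2 fold change -1.23, SE 0.08, edgeR adjusted p 1.8e-05; with the length correction -0.99). Igf2r fell from 9.29, 9.71 and 8.35 to 5.22, 4.54 and 5.07 CPM (log2 fold change -0.89, edgeR adjusted p 0.00031), and like Grb10 it dropped under the 1.5-fold size with the length correction (-0.46).

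Insr was at 60.8, 60.7 and 58.9 CPM in Tespa1+/+ LSKs, against 36.9, 11.8 and 32.9 CPM in Tespa1-/- LSKs, with Tespa1-/- replicate 2 far below the others. It was called lower (log2 fold change -1.15, edgeR adjusted p 0.0243), but not with the length correction (-0.53, edgeR adjusted p 0.231) or without any 1 of the Tespa1+/+ libraries (edgeR adjusted p 0.0538 to 0.0588). Without Tespa1-/- replicate 2 the log2 fold change was -0.78 (edgeR adjusted p 1.9e-04). Igf2bp2, an RNA-binding protein gene, fell (log2 fold change -0.93, edgeR adjusted p 0.00833; with the length correction -0.62). Of genes named here after their values were seen, Igf1r was at 202, 205 and 203 CPM against 145, 146 and 147 CPM, under the 1.5-fold size (log2 fold change -0.48) and of opposite sign with the length correction (0.23). Igfbp4, which encodes an IGF-binding protein, was at 715 to 783 CPM in Tespa1+/+ and 706 to 737 CPM in Tespa1-/- LSKs (log2 fold change -0.06, 95% interval -0.15 to 0.03). Igf1 was near the detection limit, with 15 counts in all, and Irs1 had none.

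Other inhibitors of cyclin-dependent kinases were compared with Cdkn1c. Of 6 listed, 4 were tested, 1 was called lower and 0 higher, beside 19.2% and 14.0% of all genes tested. Cdkn1b, which encodes p27, the closest relative of p57, fell from 63.9, 96.5 and 92.7 to 37.8, 51.7 and 58.1 CPM (log2 fold change -0.78, SE 0.20, edgeR adjusted p 0.0109; with the length correction -0.70). The groups did not overlap, and, as for Cdkn1c, Tespa1+/+ replicate 1 was the lowest of its group. Cdkn1a, the p21 gene induced by p53, was at 62.8, 62 and 100 CPM against 75.4, 69.1 and 30 CPM and was not called (log2 fold change -0.36, 95% interval -1.17 to 0.45, edgeR adjusted p 0.396). Cdkn2c and Cdkn2d were not called, at log2 fold changes of 0.06 and 0.28, and Cdkn2a and Cdkn2b had 0 and 1 counts.

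**Figure D5:**
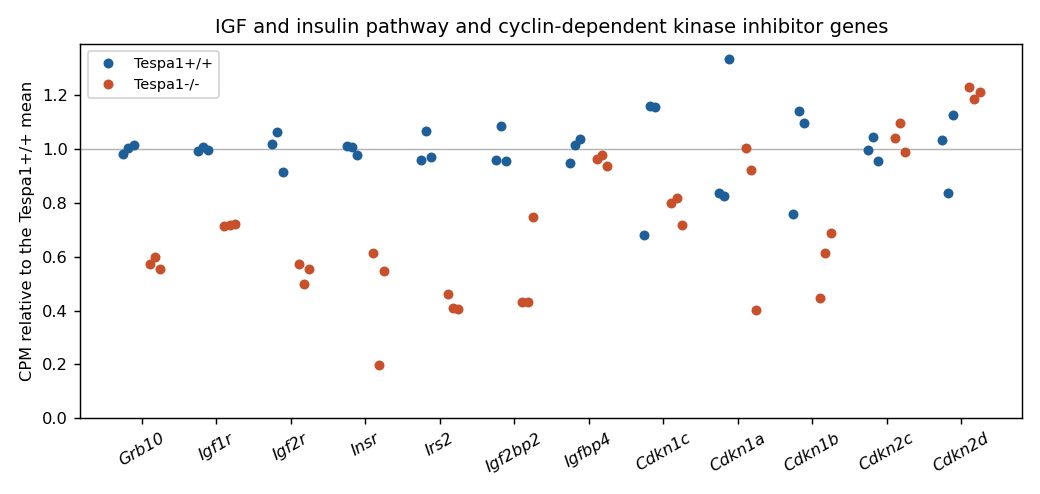
CPM of IGF and insulin pathway genes and of cyclin-dependent kinase inhibitor genes in each library, relative to the mean of the 3 Tespa1+/+ libraries (line at 1). Grb10, Igf1r, Igf2r, Insr, Irs2, Igf2bp2 and Cdkn1b lie lower in all Tespa1-/- than in all Tespa1+/+ libraries and Cdkn2d higher; single Tespa1-/- libraries lie low for Insr (11.8 CPM) and Cdkn1a (30 CPM).

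Genes of imprint control, among them genes that set or keep methylation imprints and those of the TET enzymes, were examined last. Of 19 listed, 2 had 0 counts in every library and 17 were tested. Of these, 8 were called lower and 1 higher, beside 19.2% and 14.0% of all genes tested. The median log2 fold change was -0.43. With the length correction 3 were called lower and 2 higher, beside 15.3% and 8.18% of all genes, and the median was -0.11. Dnmt3a, a de novo DNA methyltransferase gene, fell from 149, 151 and 162 to 85.4, 90.2 and 68 CPM (log2 fold change -0.92), but was at -0.21 (edgeR adjusted p 0.123) with the length correction. Dnmt3b, also a de novo methyltransferase gene, was called lower both as counted and with the length correction (-0.88 and -0.75). So was Zfp57 (-1.32 and -1.32), at a mean of 29.8 counts. Dnmt3b and Zfp57 were named after their values were seen. The genes of the TET enzymes, which oxidise methylated cytosine, were called lower as counted. Tet2, Tet1 and Tet3 had log2 fold changes of -1.41, -1.25 and -0.94. With the length correction these were -0.69, -0.57 and -0.23, and only Tet2 was still called lower.

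Levels of marker genes moved with genotype beside these results, and their part in the results was not tested. The numbers of markers called stand beside 19.2% called lower and 14.0% called higher of all genes tested. Long-term stem cells are known to express Cdkn1c and H19 at higher levels than other progenitors. The summed level of 14 markers of these cells was 252 to 290 CPM in Tespa1+/+ and 106 to 121 CPM in Tespa1-/- LSKs, with 12 of 14 called lower, and none at 0. The LSK list held Kit and Ly6a, the genes of the sort markers c-Kit and Sca-1, and also Ly6e, Cd34, Flt3 and Cd48. Sums of these 6 genes were 1960 against 1490 to 1540 CPM, with 3 called lower (2 with the length correction). Ly6e was the largest part, at means of 740 and 798 CPM, and was not called. Kit, at 321 to 340 against 165 to 176 CPM, was called lower (under the 1.5-fold size with the length correction, at -0.57). Ly6a, at 43.4 to 63.7 against 38.1 to 44.2 CPM, was called lower only with that correction (-0.65, edgeR adjusted p 0.00933). Flt3 was called lower both ways (-1.01 and -0.78), and Cd34 only as counted (-0.77 and -0.46). The sums of 9 neutrophil markers were 8480 to 9100 against 13300 to 13700 CPM (8 called higher), and were mostly Mpo, which was not called, and Elane; Ngp and Ltf, for example, rose from means of 0.252 and 0.173 CPM to 71.9 and 48.7 CPM. The sums of 8 endothelial markers were 220 to 224 against 118 to 133 CPM (6 called lower, median log2 fold change -2.59). Pecam1, which was not called, was the largest part, at means of 107 and 72.6 CPM. Stab2 and Kdr, for example, fell from means of 5.82 and 2.13 CPM to 0.126 and 0.0586 CPM. Of 10 stromal markers, 6 were at 3 counts or fewer in every library, and Pdgfra, Dcn and Kitl were at 0; their sums, 29.5 to 31.7 against 15.9 to 16.5 CPM, were mostly Pdgfrb. The sums for erythroid markers were 43 to 45.8 against 54 to 57.6 CPM (2 of 6 tested called higher and 3 lower), for megakaryocyte markers 97.1 to 109 against 78.2 to 83.4 CPM (2 of 5 lower), for B cell markers 50 to 55 against 37.5 to 41.1 CPM (4 of 6 lower), for T cell markers 3.3 to 3.57 against 1.52 to 1.69 CPM (2 of 2 lower), and for monocyte and macrophage markers 282 to 297 against 226 to 276 CPM (1 of 6 lower).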

How the data were processed

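Per the labels, poly-A RNA of sorted LSKs was made into stranded paired-end libraries; the notes of the submitters list CASAVA 1.8, HISAT2, StringTie, edgeR and the build GRCm38, without the role of each. The authors deposited 1 table with a raw count per gene and sample, not normalised, and an FPKM value, in which the authors scaled the counts by gene length and library total. Whether counting used the strand was not given in the sources used here.

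The members and all gene lists were chosen with earlier results of these data known. Groups came from the sample titles. After filterByExpr and TMM scaling, the genotypes were compared in edgeR 4.0.16 under R 4.3.3 (quasi-likelihood F-test, 6 samples, no covariates, Benjamini-Hochberg adjustment over 15332 genes); SE is the log2 fold change over the square root of F. Members with too few counts for this test were compared by exact two-sided permutation of the library CPM values and by an exact (Clopper-Pearson) interval of the pooled counts, at 95%. That interval leaves out the spread between libraries. Named were all members, the annotated genes of their regions, and from each other list the called genes with a mean count of at least 50, at most 4 in each direction; genes outside this rule were named after their values were seen, and the cell type lists are given as sums and counts, with few genes named. The length correction fits the log2 CPM deviation of each library on union exon length (GENCODE M21, loess span 0.5) and uses the fit as an offset. Of 55487 genes, 55141 were found in GENCODE M21, 54784 with identical coordinates.

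Alternatives were RLE factors, total counts, no filter, a minimum of 10 counts in each library, DESeq2 1.42.0, limma-trend (limma 3.58.1) on log2(FPKM + 1) or log2(FPKM + 0.1) where 3 or more libraries reached an FPKM of 1, the length correction, length and GC correction, the replicate number as a block with and without the length correction, and leaving out each library. The edgeR, DESeq2 and limma-trend fits were tested on simulated data. Libraries of a group differed by more than sampling noise (chi-square per degree of freedom 7.29 to 9.46), so that none was counted as the same library deposited again; separate preparations of the same RNA could differ as much. Reads carry no molecular identifiers, and depth limits the members below about 10 counts per library.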

Additional observations from a re-analysis of the deposited data

How the results depend on the processing

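Grb10 stayed lower at an adjusted p under 0.05 in all 17 other settings, with log2 fold changes between -0.90 and -0.38; leaving out single libraries gave -0.82 to -0.76. Its 1.5-fold size was lost with the length correction, the length and GC correction and the replicate block with the length correction, so that 0 members were called lower in these 3 settings and 1 in all others, and 0 were called higher in any. Cdkn1c was between -0.59 and -0.21 in the 15 settings that kept it (limma-trend on FPKM did not), and had an adjusted p under 0.05 only without Tespa1+/+ replicate 1 (-0.57, under the 1.5-fold size). Over all genes, 2148 higher calls became 1253 with the length correction, 1231 with length and GC correction, 1234 with the replicate block and length correction, 1070 with limma-trend on log2(FPKM + 1) and 1365 on log2(FPKM + 0.1), where a smaller set of genes was tested; 2951 lower calls became 1626 with limma-trend on log2(FPKM + 1). Total counts without factors shifted the median log2 fold change by -0.10, with 1493 higher and 3512 lower calls.

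Among the imprinted, IGF pathway and inhibitor genes, changes of sign with an adjusted p under 0.05 on either side came from length corrections only (length; length and GC; replicate block with length): for Kcnq1ot1 0.82, 0.82 and 0.82, for Igf1r 0.23, 0.21 and 0.23, for Gnas 0.51, 0.55 and 0.51 (from 0.00), for Tssc4 -0.02 with length and -0.02 with the block, and for Cd81 -0.12 with length and GC. Of the imprint control genes, Smchd1 went from -0.73 to 0.07 and Yy1 from -0.17 to 0.08 with the length correction. Same-numbered replicates did not deviate together (correlations -0.073, -0.078 and 0.014), and with the replicate block alone 2101 genes were called higher and 2871 lower, Grb10 among them at -0.80. What a count of 0 allows limits 8 of the 10 members. The cause of these dependences was not tested.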

Other observations

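Plagl1, a paternally expressed zinc finger gene that regulates other imprinted genes, had 9, 20 and 6 counts in Tespa1+/+ and 3, 0 and 0 counts in Tespa1-/- libraries and was too low to be tested. The ratio of the pooled counts, Tespa1+/+ over Tespa1-/-, was 7.94, with an exact counting interval of 2.5 to 40.4. This interval covers counting error only, not the spread between libraries, and Plagl1 was not compared over libraries. Sgce and Peg10, adjacent paternally expressed genes, were both called lower, at 2.29 to 2.64 against 0.403 to 0.825 CPM for Sgce (log2 fold change -1.96, edgeR adjusted p 3.3e-04) and 1.32 to 2.09 against 0.55 to 0.762 CPM for Peg10 (log2 fold change -1.50, edgeR adjusted p 0.00238). With the length correction these values were -1.48 and -1.24. Dnmt3l, a cofactor of de novo methylation, was low but called higher, at 0.876 to 1.01 against 1.88 to 2.27 CPM (log2 fold change 1.11, edgeR adjusted p 0.00143). These genes were named after their values were seen.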
